A study of Mus musculus with 22 samples.

Results

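A set of 10 genes with far higher ribosome-bound mRNA in optic nerve head astrocytes than in the optic nerve proper were followed across all libraries of a mouse microbead glaucoma model. They are Mgarp, Tes, Clrn1, Bok, Tmem37, Prss56, Cltb, Fancc, Pla2g5 and Pdlim3, 10 of the 29367 genes in the count table. All 10 were picked by name for a strong excess in the optic nerve head (ONH, the unmyelinated start of the nerve) over the optic nerve proper (ONP, an equal length of nerve just behind it), so that excess is given below as a description and without a test. The questions were whether the regional ratio was the same at day 7 and day 30 after microbead injection, in which region any change lay, and how far single pools stood from each other.

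The animals were Rpl22HA/HA Cre+ mice, from the cross of B6J.129(Cg)-Rpl22tm1.1Psam/SjJ with a line that carries a GFAP-Cre transgene, aged 3 to 4 months, and this genotype and the injection of microbeads into the eye were shared by every library. Cre under the mouse Gfap promoter switches on a haemagglutinin (HA) tag on the ribosomal protein RPL22, and an HA antibody then pulls down ribosomes with their mRNA. Each library pooled tissue of 4 mice, 2 males and 2 females. The study's methods say that ONH and ONP tissue came from the same mice, but not which pools of the 2 regions belong together. There were 4 ONH and 4 ONP pools at day 7 and 7 ONH and 7 ONP pools at day 30, 22 in all, and animals without microbeads were not analysed here. Pools are named below by the number in the column headers of the count table.

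ONH astrocytes wrap bundles of unmyelinated ganglion cell axons with branched processes and bear mechanical load where the axons leave the eye, whereas ONP astrocytes share the nerve with oligodendrocytes and myelin. Microbeads block aqueous outflow and raise intraocular pressure, which injures axons first at the ONH. The 10 genes do not form a pathway. Mgarp belongs to mitochondrial movement, Tes and Pdlim3 to actin and LIM-domain scaffolds, Clrn1 and Tmem37 to the cell membrane, Cltb to endocytosis, Bok to the BCL2 family, Fancc to DNA crosslink repair, and Prss56 and Pla2g5 to secreted enzymes.

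Libraries held 16292489 to 33307092 counts. All 10 astrocyte markers examined were above 3 counts in every pool, with Gfap alone at 8430 CPM or more. So were all oligodendrocyte, oligodendrocyte precursor, microglial and fibroblast markers examined, so this floor does not tell cell types apart. Astrocyte markers summed to 14645 to 28275 CPM in the ONH and 16008 to 34046 CPM in the ONP. In the ONP their medians, 20802 and 29303 CPM at 7 and 30 days, were below those of oligodendrocyte markers, 90433 and 54206 CPM. In the ONH the medians were 19123 and 19996 CPM against 22401 and 18306 CPM. Transcripts of other cells were present too, and in bulk samples fewer cells of a type and less RNA per cell cannot be told apart. Summed oligodendrocyte markers reached 13440 to 40472 CPM in the ONH and 25798 to 109393 CPM in the ONP. Photoreceptor markers summed to 170 to 6327 CPM in the ONH against 28.5 to 168 CPM in the ONP, and microglial and macrophage markers ranged from 264 to 5830 CPM over both regions. One 30-day ONH library, pool 7, carried 219.6 CPM of pituitary transcripts and the highest microglial sum of the ONH, 4412 CPM, so calls at 30 days that are lost without that pool number are given as such.

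Levels are CPM, counts scaled to a common library total after TMM scaling (the trimmed mean of M values). Per kilobase of exon, the order of the 10 in the ONH at 30 days ran from Cltb at 286 ± 58.1 CPM per kb (SD, n = 7) through Tmem37 (158 ± 35.5), Mgarp (135 ± 37.8), Prss56 (87.6 ± 36.5), Tes (40.5 ± 7.47), Bok (31.7 ± 4.71), Fancc (16.8 ± 3.56), Pla2g5 (15.2 ± 4.19) and Clrn1 (10.8 ± 1.62) to Pdlim3 at 6.67 ± 2.41. Pools of neighbouring genes overlapped at every step of that order except from Cltb to Tmem37 and from Bok to Fancc. Lengths count every annotated exon of a gene, so the order also depends on the annotation. In the ONP at 30 days Cltb and Tmem37 still led, at 57.5 ± 3.86 and 14.6 ± 2.57 CPM per kb, while Mgarp stood sixth at 1.70 ± 0.346 and Prss56 last at 0.310 ± 0.170.

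**Figure D1:**
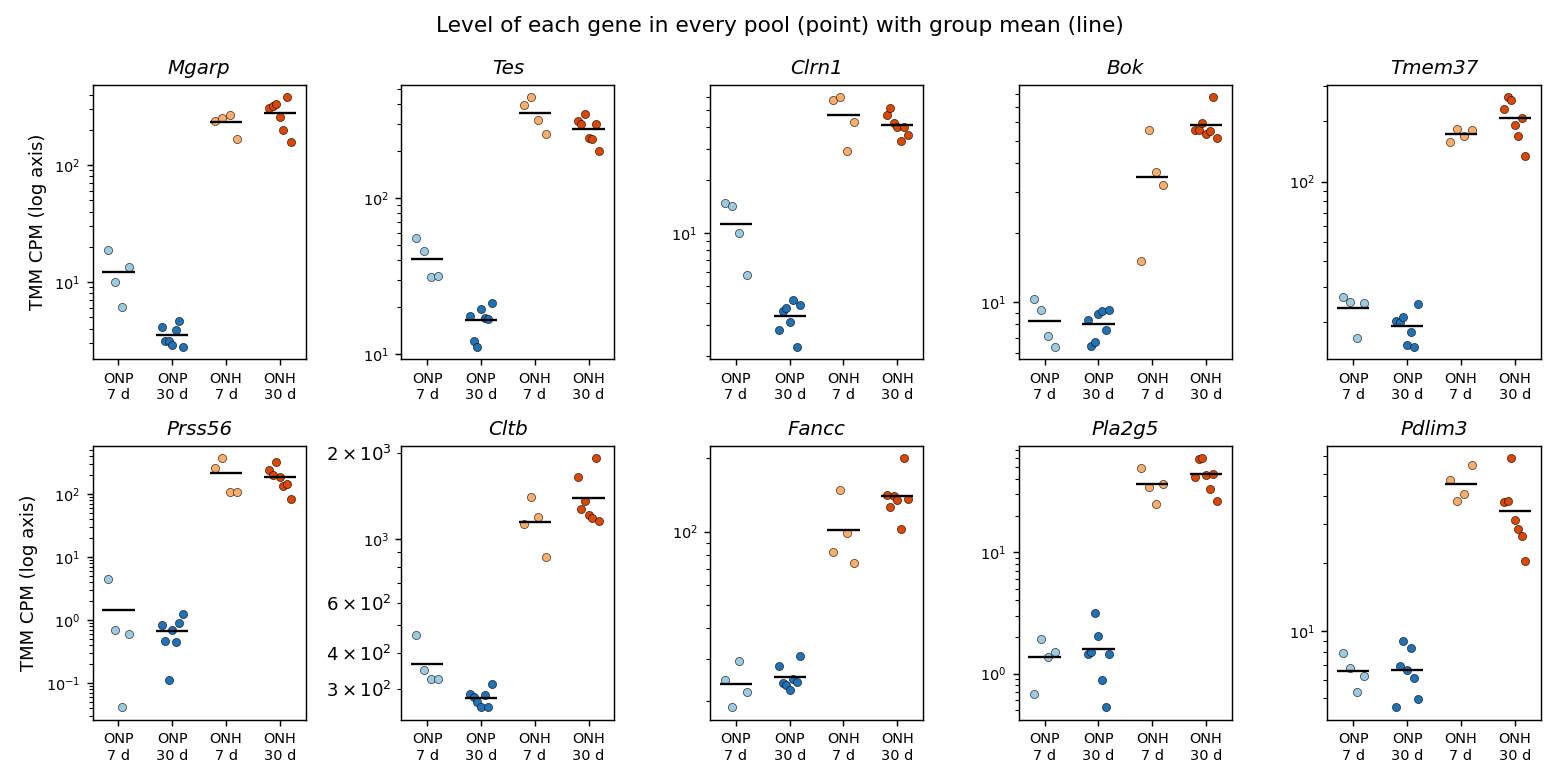
TMM CPM of each gene on log axes in every pool (points) of ONP and ONH at 7 and 30 days, with the group mean as a line. ONH pools lie above ONP pools in every panel, and in the ONP the 30-day points of Mgarp, Tes, Clrn1 and Cltb lie below all 7-day points.

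Over the 10 genes, the median ONH over ONP difference was 2.85 log2 units (7.23-fold) at 7 days and 3.56 (11.8-fold) at 30 days, against medians of 0.07 and -0.01 over all genes tested. Every ONH pool exceeded every ONP pool for all 10 genes on both days. Among all genes tested, 9.88% had such complete separation with the ONH above at 7 days and 8.48% at 30 days, and 11.9% and 8.04% had it with the ONH below. Since this excess chose the genes, nothing is read from those counts.

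Mgarp, on chromosome 3 at 51388412 to 51396738 (GRCm38), encodes a mitochondrial protein that links mitochondria to their transport machinery and is induced by hypoxia. In the ONH it held 239, 252, 270.0 and 166 CPM in the 7-day pools and 158 to 379.9 CPM (median 309) at 30 days. In the ONP the 7-day pools held 18.8, 9.97, 6.09 and 13.5 CPM, and the 30-day pools 2.80 to 4.64 CPM (median 3.11). Thus all 7 ONP pools at 30 days were below all 4 at 7 days, while the ONH pools of both days overlapped. The fitted ratio of ONH to ONP rose from 19.6-fold (log2FC 4.30 ± 0.35, SE) to 81.5-fold (6.35 ± 0.22). Between 30-day pools of the same number, the ratio ran from 51.4 to 107, with a median of 81.9.

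Clrn1, on chromosome 3 at 58844028 to 58885340, encodes clarin 1, a tetraspan-like membrane protein mutated in a form of Usher syndrome. Its 7-day ONH pools had 57.4, 59.3, 29.4 and 43.0 CPM and the 30-day pools 33.4 to 51.8 CPM (median 40.3). ONP pools had 14.9, 14.4, 10.1 and 5.79 CPM at 7 days and 2.27 to 4.16 CPM (median 3.63) at 30 days. Here too the ONP pools of the 2 days did not overlap and the ONH pools did. The ONH to ONP ratio was 4.26-fold (log2FC 2.09 ± 0.34) at 7 days and 12.6-fold (3.66 ± 0.15) at 30 days.

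Tes, on chromosome 6 at 17065149 to 17105828, encodes testin, a LIM-domain protein of focal adhesions and actin filaments. The ONH level was 394, 443, 318 and 258 CPM at 7 days and 200.4 to 346 CPM (median 300.3) at 30 days. The ONP level was 55.3, 45.8, 31.5 and 31.7 CPM at 7 days and 11.2 to 21.3 CPM (median 17.2) at 30 days. ONP pools were again fully separated by day, with 30 days lower. The ratio went from 8.76-fold (log2FC 3.13 ± 0.26) to 17.2-fold (4.10 ± 0.17).

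Cltb, on chromosome 13 at 54592401 to 54611344, encodes clathrin light chain B, a subunit of the coat of endocytic vesicles, and was the most abundant of the 10. ONH pools had 1127, 1402, 1193 and 862 CPM at 7 days and 1155 to 1914 CPM (median 1275) at 30 days. ONP pools had 462, 349.7, 326 and 326 CPM at 7 days and 259 to 313 CPM (median 281) at 30 days. The separation by day in the ONP was narrow, between 313 and 326 CPM. The ratio was 3.20-fold (log2FC 1.68 ± 0.20) at 7 days and 5.11-fold (2.35 ± 0.12) at 30 days.

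Bok (chromosome 1, 93685660 to 93695764), a member of the BCL2 family that promotes cell death, was the least even gene across the 7-day ONH pools apart from Prss56. Those pools held 15.0, 55.8, 36.7 and 32.2 CPM, against 51.5 to 77.1 CPM (median 55.4) at 30 days. At 30 days, 6 of the 7 pools were within 51.5 and 59.7 CPM, and only pool 3 of the 7-day pools reached that range. In the ONP it held 10.3, 9.21, 7.12 and 6.41 CPM at 7 days and 6.44 to 9.22 CPM (median 8.31) at 30 days, with full overlap of the days. The ratio was 4.32-fold (log2FC 2.11 ± 0.37) and then 7.46-fold (2.90 ± 0.12).

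Fancc (chromosome 13, 63285043 to 63497278), a subunit of the Fanconi anaemia core complex, had 82.6, 148, 99.0 and 74.6 CPM in the 7-day ONH pools and 102 to 200.4 CPM (median 136) at 30 days. ONP pools had 24.5, 18.9, 29.3 and 21.9 CPM and then 22.3 to 30.8 CPM (median 24.0). Both regions overlapped between the days. Its ratio was 4.36-fold (log2FC 2.13 ± 0.25) at 7 days and 5.71-fold (2.51 ± 0.13) at 30 days. Of its 8359 exon bases, 18.6% are shared with genes on the opposite strand, and the library kit is not stated to keep the strand, so part of its count could belong to them.

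Tmem37 (chromosome 1, 120067377 to 120074074), which encodes a protein related to the gamma subunits of voltage-dependent calcium channels, was the steadiest in the 7-day ONH, at 157, 183, 168 and 181 CPM. At 30 days the ONH pools spread from 134 to 262 CPM (median 206). ONP pools held 26.7, 25.1, 16.6 and 24.9 CPM at 7 days and 15.1 to 24.7 CPM (median 19.9) at 30 days. Days overlapped in each region, and the ratio was 7.52-fold (log2FC 2.91 ± 0.19) and 11.1-fold (3.47 ± 0.16).

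Prss56 (chromosome 1, 87183313 to 87188405), a trypsin-like serine protease in which mutations shorten the eye, had the largest ratio and the weakest ONP counts. ONH pools had 263, 376, 110.0 and 109 CPM at 7 days and 85.7 to 329.6 CPM (median 191) at 30 days. The 7-day ONP pools had 74, 11, 1 and 16 reads, or 4.52, 0.703, 0.0414 and 0.614 CPM, and the 30-day pools 2 to 31 reads, or 0.113 to 1.26 CPM. A single ONP library, pool 1 at 7 days, therefore stood above all others in that region. The ratio was 156-fold (log2FC 7.28 ± 0.99) at 7 days and 283-fold (8.15 ± 0.40) at 30 days, and without that pool the 7-day log2FC was 8.95, above the 30-day value.

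Pla2g5 (chromosome 4, 138799244 to 138863482), a secreted phospholipase A2, had 49.5, 34.7, 24.7 and 36.3 CPM in the 7-day ONH and 26.6 to 59.6 CPM (median 43.1) at 30 days. In the ONP it had 0.672, 1.92, 1.37 and 1.496 CPM and then 0.527 to 3.16 CPM (median 1.46). The ratio was nearly equal on both days, 26.9-fold (log2FC 4.75 ± 0.37) and 28.5-fold (4.83 ± 0.32). Pdlim3 (chromosome 8, 45885461 to 45919548), a PDZ and LIM protein that binds alpha-actinin, was the single gene whose ratio was lower at 30 days, 5.30-fold (log2FC 2.41 ± 0.22) against 6.95-fold (2.80 ± 0.22). Its ONH pools had 46.8, 38.0, 40.5 and 54.9 CPM at 7 days and 20.4 to 58.8 CPM (median 31.1) at 30 days, and its ONP pools 7.95, 6.84, 5.34 and 6.25 CPM and then 4.56 to 8.96 CPM (median 6.69). Pools of both days overlapped for both genes in each region.

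**Figure D2:**
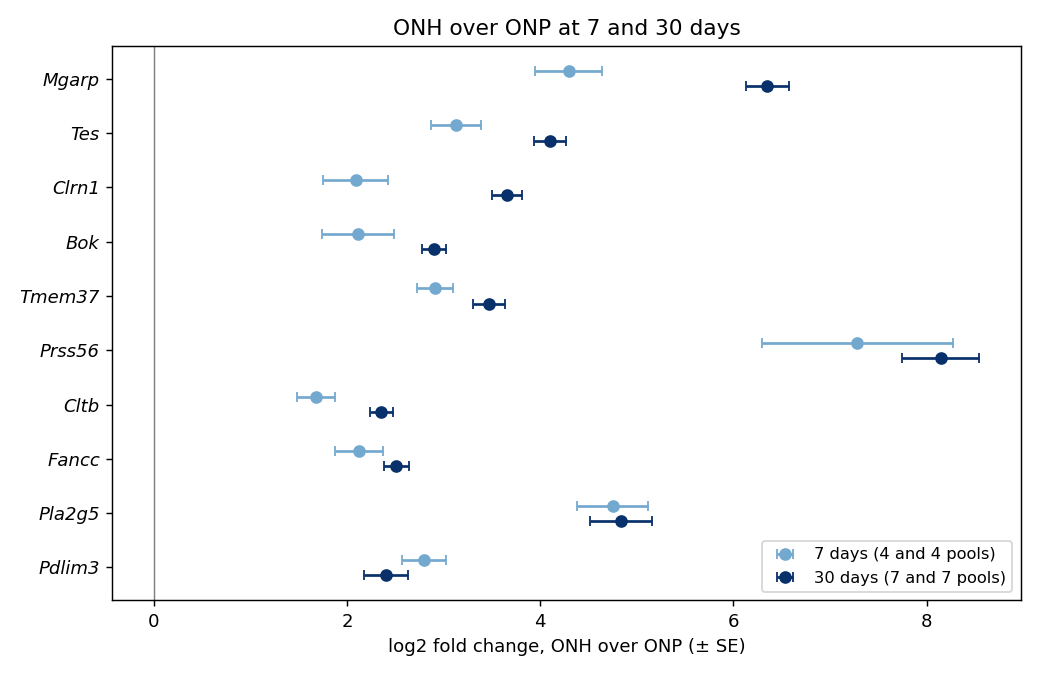
Log2 fold change of ONH over ONP (x axis, ± SE) for each of the 10 genes at 7 days (light) and 30 days (dark). The 30-day point lies to the right of the 7-day point for 9 genes, farthest for Mgarp (4.30 to 6.35), and to the left for Pdlim3.

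Between day 7 and day 30, Mgarp, Clrn1 and Tes fell 2.54- to 3.53-fold in the ONP and Cltb by less, whereas no gene of the 10 passed the test in the ONH. Mgarp fell by 1.82 on the log2 scale in the ONP (SE 0.27, a 3.53-fold decrease, edgeR quasi-likelihood test with Benjamini-Hochberg adjustment, adjusted p = 0.00167). Clrn1 fell by 1.77 (SE 0.26, 3.42-fold, adjusted p = 0.00153 in edgeR) and Tes fell by 1.35 (SE 0.20, 2.54-fold, adjusted p = 0.00167 in edgeR). Cltb fell by 0.42 (SE 0.11, 1.342-fold, adjusted p = 0.0180 in edgeR). These are 4 of 10 lower and 0 higher, where 9.21% of the 15491 genes tested were lower, 7.80% higher and 17.0% called in either direction. Complete separation of the pools with 30 days below, as all 4 genes had, was found for 5.55% of genes tested, and 6.58% had 30 days above. The other 6 had log2FC of -1.14 (Prss56), -0.32 (Tmem37), -0.07 (Bok), -0.02 (Pdlim3), 0.06 (Fancc) and 0.18 (Pla2g5), with adjusted p from 0.198 to 0.962 in edgeR.

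The choice of genes for a high ONH over ONP ratio used the same ONP libraries, and a low 30-day ONP value raises that ratio, so the direction of these falls is not independent of the choice. Without ONP pool 1 of day 7, which held the highest Mgarp, Tes, Clrn1, Cltb and Prss56 levels of the ONP, the decrease of Cltb was 0.26 on the log2 scale and no longer passed (adjusted p = 0.0646, edgeR). Mgarp, Tes and Clrn1 passed without any single pool, with adjusted p of at most 0.00817 in edgeR.

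Other cells' transcripts moved in the ONP over the same interval. Müller glia markers summed to 3792 to 4938 CPM at 7 days and 2094 to 3292 CPM at 30 days, and endothelial markers to 105 to 163 and 13.8 to 99.7 CPM, so both were fully separated by day as the 4 genes were. Oligodendrocyte markers, at 81328 to 109393 and 25798 to 85186 CPM, and microglial markers, at 1875 to 3147 and 348 to 5830 CPM, had lower medians at 30 days with some overlap of pools. Astrocyte markers went the other way, with medians of 20802 CPM at 7 days and 29303 CPM at 30 days. Their pools overlapped too, at 16496 to 22382 and 16008 to 34046 CPM. The part of these cell types in the falls of Mgarp, Clrn1, Tes and Cltb was not tested.

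In the ONH, 0 of the 10 passed at 30 against 7 days (edgeR), and 0% of the 15668 genes tested did, although 2181 had an unadjusted p under 0.05. Among the 10, Bok (log2FC 0.74 ± 0.27, adjusted p = 0.261 in edgeR) and Fancc (0.48 ± 0.21, adjusted p = 0.343) were the 2 with an unadjusted p under 0.05. DESeq2 called 446 genes in this comparison and limma-voom 0, and neither called any of the 10. Pools of the days overlapped for all 10 genes in the ONH, where 1.71% of genes tested had every 30-day pool above and 0.543% every 30-day pool below.

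**Figure D3:**
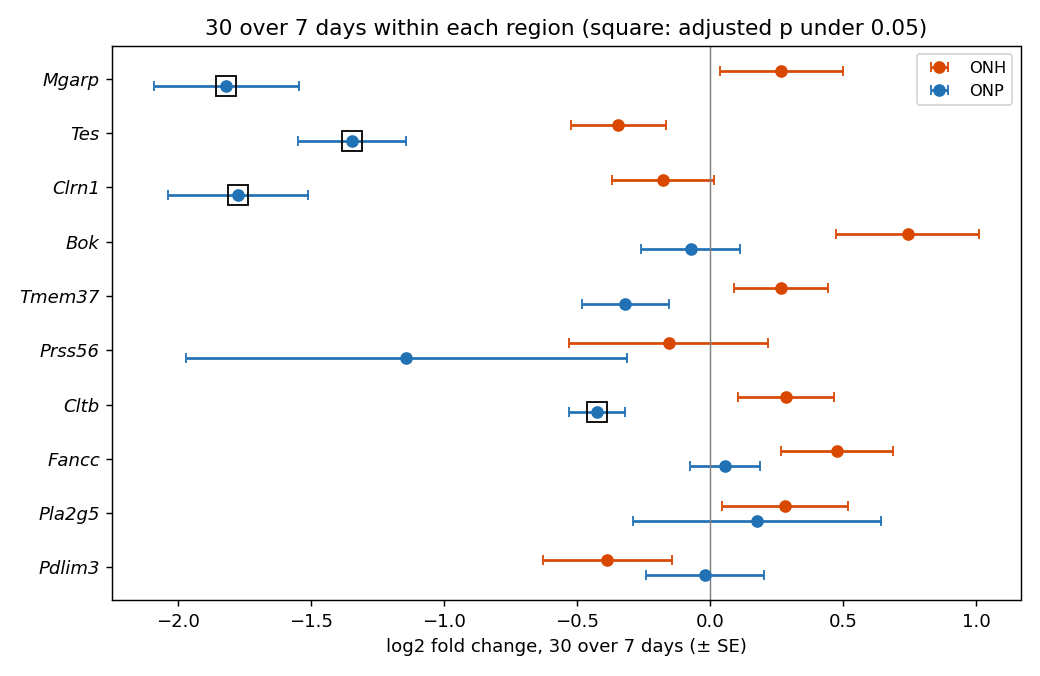
Log2 fold change of 30 over 7 days (x axis, ± SE) in the ONH (orange) and the ONP (blue), with a square around values at an adjusted p under 0.05. The 4 squares are the ONP values of Mgarp, Clrn1, Tes and Cltb, and no ONH value has one.

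The change of the regional ratio itself, (ONH at 30 days minus ONP at 30 days) minus the same difference at 7 days, was tested in a single fit of all 22 libraries. It passed for Mgarp, by 2.08 log2 units (SE 0.36, adjusted p = 0.0103 in edgeR), and for Clrn1, by 1.59 (SE 0.32, adjusted p = 0.0275). That is 2 of 10, both positive, where 0.573% of the 16748 genes tested were called and 0.418% were called positive. The genes were picked for a high ratio in these same libraries, which can favour a direction, so these p-values are not independent of the choice and nothing is read from the count. Tes (0.997 ± 0.28, adjusted p = 0.0996), Cltb (0.71 ± 0.22, adjusted p = 0.1402), Bok (0.81 ± 0.33, adjusted p = 0.293) and Tmem37 (0.58 ± 0.24, adjusted p = 0.307) had an unadjusted p under 0.05 only in edgeR, and DESeq2 also called Tes (0.96, adjusted p = 0.0480). Values for Prss56 (0.88 ± 0.88), Fancc (0.42 ± 0.26), Pla2g5 (0.10 ± 0.47) and Pdlim3 (-0.37 ± 0.32) were within about 2 SE of 0. The median over the 10 was 0.76 against -0.01 over all genes tested, from libraries that also chose the genes.

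Some of these calls rest on the model or on few pools. With limma-voom and sample quality weights neither gene passed (Mgarp 1.80, adjusted p = 0.0747, and Clrn1 1.46, adjusted p = 0.0703). When 30-day pools of the same number were paired as a replicate block in limma-voom, Clrn1 did not pass (1.44, adjusted p = 0.0607) and Mgarp was the 1 gene of the 10 that did. In edgeR, Clrn1 also missed the threshold without ONP pool 1 of day 7 (adjusted p = 0.0830), ONP pool 2 of day 7 (0.0823) or ONP pool 6 of day 30 (0.050005), whereas Mgarp passed without any single pool. Leaving out pool 7 of both regions at 30 days kept both calls.

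Short motifs were searched in the start regions of the 4 genes that fell in the ONP. Bases upstream of both the RefSeq and the GENCODE start, from the RefSeq tables on GRCm38.p6, are printed for them, 5′ to 3′ on the gene's strand. Capitals mark 4 motifs searched on both strands. They are the CCAAT box, the GC box with the letters GGGCGG, the cAMP response element with the letters TGACGTCA, and the hypoxia response core with the letters ACGTG, which overlaps some E-boxes. Mgarp is from chr3:51396739-51396797 (minus strand), Tes from chr6:17064899-17065148 (plus), Clrn1 from chr3:58885341-58885462 (minus) and Cltb from chr13:54611374-54611623 (minus).
Mgarp: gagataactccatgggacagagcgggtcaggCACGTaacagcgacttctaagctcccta
Tes: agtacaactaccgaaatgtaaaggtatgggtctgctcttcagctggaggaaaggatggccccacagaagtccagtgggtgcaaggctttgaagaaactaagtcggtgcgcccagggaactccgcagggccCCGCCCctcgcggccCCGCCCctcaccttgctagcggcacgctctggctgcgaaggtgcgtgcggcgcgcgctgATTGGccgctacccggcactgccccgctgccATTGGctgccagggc
Clrn1: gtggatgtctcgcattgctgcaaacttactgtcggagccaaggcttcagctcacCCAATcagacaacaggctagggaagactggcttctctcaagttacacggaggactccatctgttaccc
Cltb: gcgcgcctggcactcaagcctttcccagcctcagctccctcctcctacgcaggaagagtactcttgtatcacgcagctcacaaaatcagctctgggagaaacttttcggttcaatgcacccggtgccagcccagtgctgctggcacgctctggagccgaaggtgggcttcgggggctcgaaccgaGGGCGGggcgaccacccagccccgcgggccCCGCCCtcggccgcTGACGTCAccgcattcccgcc

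In the printed bases, Tes carries a pair of GC boxes and a pair of CCAAT boxes, Cltb a pair of GC boxes followed by a full cAMP response element, Clrn1 1 CCAAT box and Mgarp 1 hypoxia core. All 10 genes had a start window of 300 bases in the RefSeq table, 11 windows in all since Pla2g5 has 2 starts. Over 32851 such windows, 37.4% held the CCAAT box, 35.7% the GC box, 19.6% the hypoxia core and 1.79% the cAMP response element. Among the windows of the 10 genes, the CCAAT box was in those of 4 genes, the GC box in 6, the hypoxia core in Mgarp alone, and the cAMP response element in Cltb and Pdlim3. The E-box, searched as CANNTG and held by 72.3% of windows, was found for 7 genes. The AP-1 site, searched as TGANTCA and held by 7.81%, was found for Tmem37. The STAT site, searched as TTCNNNGAA and held by 8.30%, was found for Prss56. The TATA box, searched as TATAAA and held by 13.6%, was found for none. None of the 8 motifs was found for all 4 genes that fell in the ONP. Their windows held the GC box for Mgarp, Tes and Cltb, and the E-box for Mgarp, Tes and Clrn1.

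The spread between pools was modest for most of the 10. Their median coefficient of variation was 25.5% in the 7-day ONH, 21.9% in the 30-day ONH, 25.0% in the 7-day ONP and 20.1% in the 30-day ONP, beside 38.6%, 30.3%, 23.0% and 24.4% for all genes tested. Cltb varied least, by 6.72% across the 30-day ONP pools, and Prss56 most, by 140% across the 7-day ONP pools. The biological coefficient of variation fitted by edgeR over all groups was 18.5% for Cltb and 68.8% for Prss56, at percentiles 12.8 and 80.2 of all genes, with a median of 32.3%. Prss56 and Pla2g5 (34.2%) were the 2 genes above that median. Between 30-day pools of the same number, the ONH to ONP ratio of Prss56 ran from 68.1 to 2925, that of Cltb from 3.69 to 7.35.

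Pools that were low for a single gene tended to be low for the others in the ONH. After group means were removed, 39 of the 45 pairs of genes had a positive correlation over the 11 ONH libraries, with a median r of 0.45 (-0.28 to 0.90), and 32 of 45 over the 11 ONP libraries, with a median of 0.21 (-0.58 to 0.94). Points share depth and TMM scaling, and these values are descriptions. ONH pools 7 and 5 of day 30 were below their group mean for 10 of 10 genes, by 0.48 and 0.28 log2 units on average, and pool 3 was above for 9 of 10, by 0.33. In the ONP, pool 1 of day 7 was above for 9 of 10, by 0.47, and pool 5 of day 7 below for 8 of 10, by 0.45.

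In the ONH the pools with the lowest levels of the 10 genes held the most oligodendrocyte and microglial transcripts. The mean deviation of the 10 genes had r = -0.90 with the summed oligodendrocyte markers, -0.88 with oligodendrocyte precursor markers, -0.91 with microglial markers, -0.71 with fibroblast markers and 0.61 with astrocyte markers over 11 libraries, group means removed. The fibroblast value rests largely on Ptgds. Its ONH medians were 3375 and 3143 CPM at 7 and 30 days, beside 4373 and 3660 CPM for the whole list. Pool 7 of day 30 had the highest oligodendrocyte sum, 40472 CPM, and pool 3 the lowest, 13440 CPM. The corresponding r in the ONP was 0.03 for oligodendrocyte and 0.31 for microglial markers. Photoreceptor and retinal pigment epithelium markers, which were higher in the ONH than in the ONP, had r of -0.36 and -0.14 in the ONH, and melanocyte and endothelial markers -0.36 and -0.49. Without pool 7 of day 30, over 10 libraries, melanocyte markers had the strongest r, -0.96, endothelial markers -0.75, photoreceptor markers -0.67 and pigment epithelium markers -0.51, and the oligodendrocyte and microglial values were -0.86 and -0.85. The part of these cells in the pool differences was not tested.

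**Figure D4:**
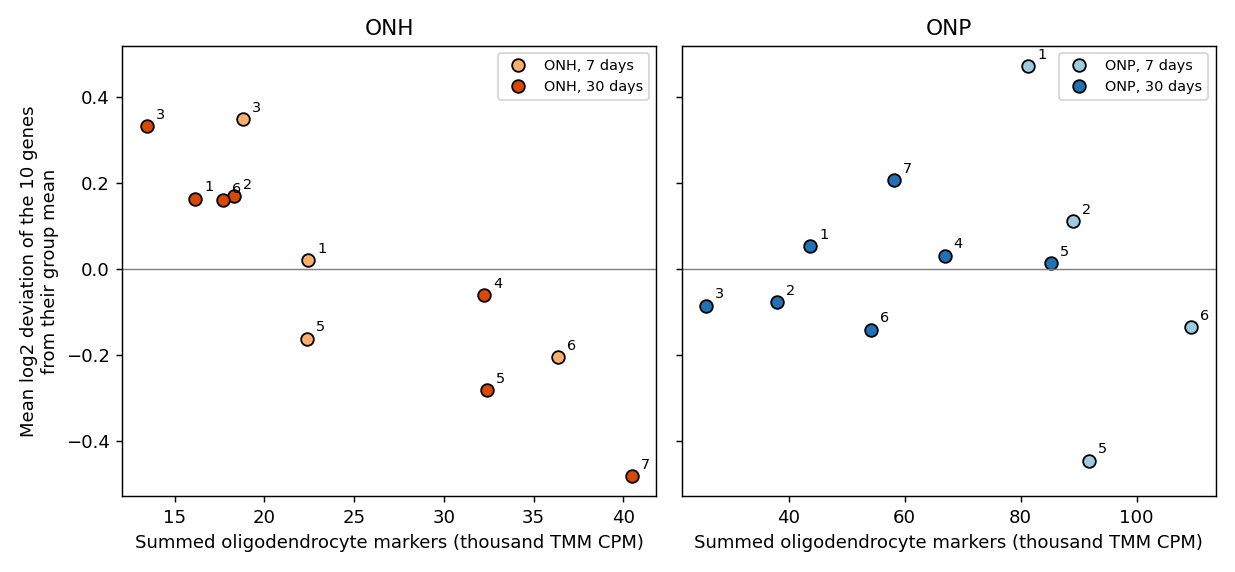
Mean log2 deviation of the 10 genes from their group mean (y axis) against the summed oligodendrocyte markers in TMM CPM (x axis, scaled down as labelled), 1 numbered point per pool, ONH left and ONP right. ONH points descend from pool 3 to pool 7 of day 30 (r = -0.90 over 11 libraries), and ONP points show no such slope (r = 0.03).

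Relatives of the 10 genes, from lists of their families and partners, were not generally higher in the ONH. Of 128 relatives tested at 30 days, 28 were higher in the ONH, 27 higher in the ONP and 73 did not pass (edgeR), where 21.8% and 20.0% of all genes tested were called in those directions. The tests did not pair pools, and with 30-day pools paired by number as a replicate block the counts were 31 and 32. At 7 days 10 of 126 were higher in the ONH and 11 higher in the ONP, beside 6.37% and 6.90% of all genes. The 7-day counts turned on single pools, being 5 and 6 without ONP pool 6 and 15 and 16 without ONH pool 6, and were 19 and 16 in DESeq2.

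In the list of clathrin coat genes and their partners, more called genes were higher in the ONP than in the ONH, opposite to Cltb. Among 15 tested at 30 days, 2 were higher in the ONH and 8 higher in the ONP. Of all genes tested, 21.8% and 20.0% were called in those directions. Clta, the other light chain, was higher in the ONH at 233 against 116 CPM (log2FC 1.05 ± 0.15, adjusted p = 5.43e-05 in edgeR), while Dnajc6, the auxilin that uncoats vesicles, was lower at 4.996 against 12.8 CPM (-1.31 ± 0.25, adjusted p = 0.000553). Per kilobase of exon, Cltb made up 68.9% ± 4.399 of light chain mRNA in the ONH at 30 days (SD, n = 7) and 47.3% ± 1.85 in the ONP, with no overlap of pools (62.9 to 75.4% and 44.8 to 49.9%). At 7 days the shares were 71.9% ± 6.14 and 52.8% ± 3.95 (n = 4 each). The lengths used were all annotated exon bases, 4868 for Cltb and 1800 for Clta. The size of each share therefore depends on the annotation, and in counts Cltb exceeded Clta in every pool of both regions. Since Cltb was chosen for its ONH excess, this share has no test.

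Mitochondrial transport genes, the surroundings of Mgarp, were split, with 4 higher in the ONH and 6 higher in the ONP of 14 tested at 30 days. Kif5a, a kinesin heavy chain that carries mitochondria, was higher in the ONH at 1166 against 227 CPM (2.40 ± 0.20, adjusted p = 4.03e-07 in edgeR), and Snph, which anchors mitochondria, was lower at 27.6 against 49.7 CPM (-0.81 ± 0.19, adjusted p = 0.00325). Between day 7 and day 30 in the ONP, 6 of these 14 fell and 0 rose, where 9.21% of all genes tested fell and 7.80% rose. Those 6 were Trak2, Kif5a, Kif5b, Kif5c, Mfn1 and Opa1. Kif5a had the largest of these decreases, from 986 to 227 CPM (log2FC -2.15 ± 0.20, adjusted p = 0.000246 in edgeR), and the other 5 fell by 0.34 to 0.79 on the log2 scale.

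LIM and focal adhesion partners of Tes had 4 of 16 higher in the ONH and 3 higher in the ONP. Tln1, the integrin linker talin, had a log2FC of 1.11 ± 0.19 (adjusted p = 0.000319 in edgeR) and Zyx, a zyxin-family LIM protein, -0.71 ± 0.23 (adjusted p = 0.0202), a call lost when pool 7 of both regions was left out (adjusted p = 0.0575). Prickle1, a PET and LIM protein like testin, was lower in the ONH at both days (-1.75 ± 0.22 at 7 days, adjusted p = 0.000598, and -0.49 ± 0.19 at 30 days, adjusted p = 0.0429, edgeR), and the 30-day call was lost without each of 9 of the 14 single pools. Its ONP level fell from 48.9 to 23.0 CPM (adjusted p = 0.00146 in edgeR). It was the 1 relative called in edgeR for a change of the regional ratio between the days (1.27, adjusted p = 0.0439). That call was not made with limma-voom, RLE size factors, library size only, the filter of at least 1 count, or pool 7 of both regions left out. Without single pools, the number of relatives called positive differed from 1 in 17 of 22 fits, ranging from 0 to 2. Among 8 PDZ-LIM and actinin genes, 3 were higher in the ONH and 2 higher in the ONP. Pdlim7 (1.84 ± 0.18, adjusted p = 2.36e-06) and Pdlim4 (0.59 ± 0.13, adjusted p = 0.00228) were among the former and Ldb3 (-1.54 ± 0.21, adjusted p = 3.98e-05) among the latter, while Pdlim1 had 0.28 ± 0.29 (adjusted p = 0.474).

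BCL2 family genes had 4 of 16 higher in the ONH, Bax (0.73 ± 0.14, adjusted p = 0.000781 in edgeR) and Bik (1.29 ± 0.36, adjusted p = 0.00876, but 0.0862 in a fit of all 4 groups) among them, and 1 lower, the death promoter Bcl2l11 (-1.10 ± 0.18, adjusted p = 0.000207). Bak1, closest to Bok and Bax in function, was at 0.322 CPM or less in every group mean and was not tested. Calcium channel subunits had 3 of 17 higher and 2 lower, with Cacnb3 at 1.43 ± 0.22 (adjusted p = 0.000122) and Cacng5 at -1.19 ± 0.29 (adjusted p = 0.00389). For clarins and Usher proteins, 2 of 7 were higher and 1 lower, with Adgrv1, an Usher receptor, at 0.72 ± 0.21 (adjusted p = 0.0122) and Pdzd7 at -1.83 ± 0.62 (adjusted p = 0.0260). Pdzd7 did not pass without ONP pool 1 or 4 of day 30 (adjusted p = 0.0594 and 0.0519, edgeR). Clrn2 was not tested, at 0.239 CPM or less in every group mean.

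Fanconi genes had 2 of 17 higher, with Fancd2 at 1.47 ± 0.41 (adjusted p = 0.00952 in edgeR), and 2 lower, with Fancf at -1.57 ± 0.52 (adjusted p = 0.0245). Fancd2 did not pass in a fit of all 4 groups (adjusted p = 0.238, edgeR). Fancf did not pass with limma-voom (adjusted p = 0.222), nor in edgeR without ONP pool 4 (0.0535) or 5 (0.0568) of day 30 or without pool 7 of both regions (0.0593). Both are low, under 6 CPM in every group mean, and Fanca was not tested at 30 days. Phospholipases A2 had 1 of 7 higher, Pla2g7 (0.97 ± 0.24, adjusted p = 0.00385), and 2 lower, Pla2g6 at -0.82 ± 0.19 (adjusted p = 0.00267) among them. Serine proteases and eye size genes had 3 of 11 higher and 0 lower. The largest was Rbp3, a photoreceptor gene (4.86 ± 1.24, adjusted p = 0.00627), in pools where photoreceptor markers were also higher. The part of photoreceptor RNA in that value was not tested. In the ONP between day 7 and day 30, 6 of 129 relatives rose and 16 fell (edgeR), near the shares of all genes tested, 7.80% and 9.21%. In the ONH 0 relatives passed.

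**Figure D5:**
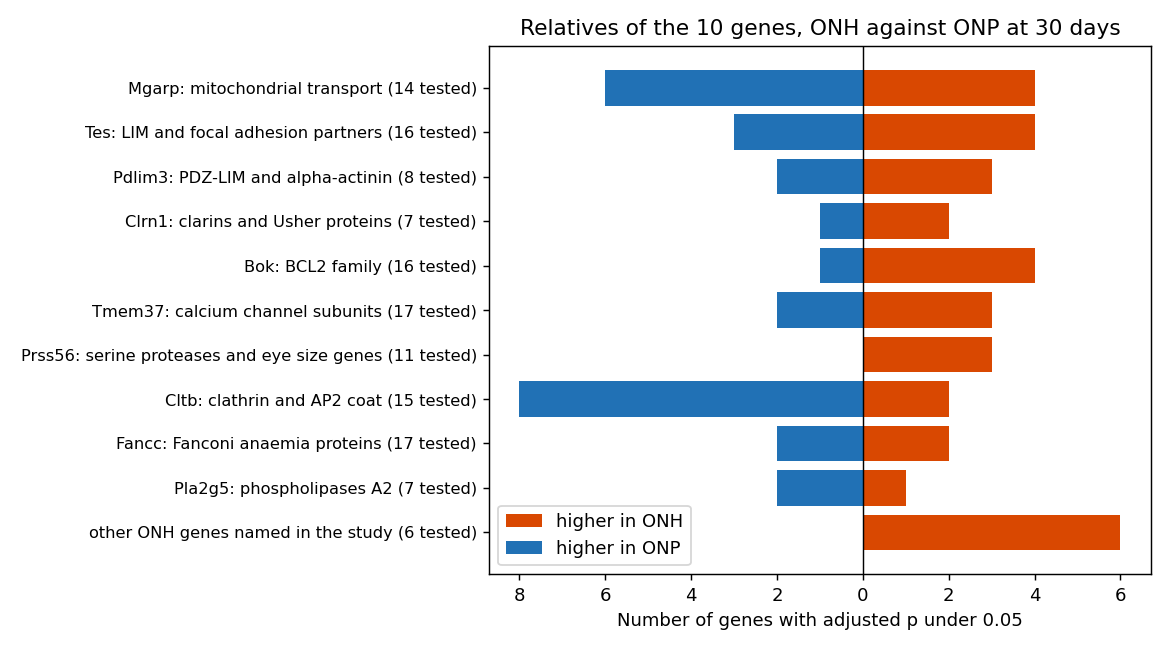
Number of relatives with an adjusted p under 0.05 in ONH against ONP at 30 days (x axis), higher in ONP to the left and higher in ONH to the right, by list (y axis, with the number tested). Clathrin coat and mitochondrial transport genes lean to the ONP (8 against 2 and 6 against 4), and the 6 genes the study names lie all on the ONH side.

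Genes outside the 10 whose levels most resembled the mean standardised log2 level of the 10 over 22 libraries were Cartpt (r = 0.99), Pnliprp1, Wt1, Clec18a and Cthrc1 (each 0.98), out of 16738. Cartpt, which encodes a neuropeptide precursor, averaged 1592 and 1716 CPM in the ONH at 7 and 30 days and 15.1 and 3.87 CPM in the ONP, and its fall in the ONP passed the test (log2FC -2.01 ± 0.53, adjusted p = 0.0229 in edgeR). These correlations mostly follow the regional gap. With group means removed, the closest were 6030407O03Rik, D030028A08Rik, Pcdhb15, Gm42858 and CT010496.1, with r of 0.71 to 0.72 over the same libraries. The 6 ONH genes that the study names outside the 10 (Cartpt, Dct, Clec18a, Cntnap2, Ankrd33b and Col8a1) were all higher in the ONH on both days, by 2.54 to 8.83 log2 units. The study named them, together with Mgarp, Tes, Tmem37 and Bok, as top ONH genes of untreated animals also found in these 30-day samples. Dct is also a melanocyte marker, and the melanocyte sums were higher in the ONH than in the ONP.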

How the data were processed

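Ribosome-bound polyadenylated RNA of 22 pools (ONH and ONP, 7 and 30 days) had been sequenced after HA immunoprecipitation. The deposited table holds estimated counts per gene that the authors made with Salmon 0.14.2 (their processing notes also name STAR 2.6.1d, R 4.1.0, DESeq2 1.34.0 and build mm10) and rounded to whole numbers. The deposited variance-stabilized values were not used. The 10 genes and all lists were chosen with earlier results of these data known.

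Counts were analysed with edgeR 4.0.16 in R 4.3.3, by filterByExpr, TMM scaling and robust quasi-likelihood tests, p-values adjusted by Benjamini-Hochberg across every gene that passed the filter, and a threshold of 0.05. Each comparison used its own 2 groups, and the change of the regional ratio used all 22 libraries. SE was taken from the log2FC and its F statistic. Fits were tested on simulated data. DESeq2 1.42.0, limma 3.58.1 (voom), other scalings, filters and leaving out single pools were alternatives, and leaving out pool 7 was chosen after seeing the data. Named genes were the 10, members of the family lists, and the 5 most correlated genes by each of 2 measures.

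At 30 days pools of both regions were paired by their number. The study's methods say that both regions came from the same mice, but not that the numbers match. Deviations of same-numbered pools from the group means correlated at 0.08 to 0.47 over genes. Pools 3, 5 and 7 were the only ones whose best match had the same number. The 7-day column numbers differ from the replicate numbers of the labels, so those pools were not paired. Totals of 16292489 to 33307092 counts per library limit precision mainly for Prss56 and Pla2g5 in the ONP. Positions and exon lengths are from GENCODE on GRCm38, promoters from RefSeq on GRCm38.p6. Within a region, nothing says that pools were independent beyond holding different mice. ONH and ONP pools could share mice, and the main edgeR tests between regions and of the ratio change did not pair them. The p-values weigh each difference against the spread between pools.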

Additional observations from a re-analysis of the deposited data

Results flagged for a closer look

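Among 40 groups of pools of the 10 genes, 3 held a pool far from the others by Dixon's test, which marks about 1 in 20 groups by chance. Bok and Fancc were high in the same library, ONH pool 6 of day 30, at 77.1 CPM (other pools up to 59.7 CPM) and 200.4 CPM. Prss56 was high in ONP pool 1 of day 7, at 4.52 CPM against at most 0.703 CPM in the other 3 pools.

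The regional ratio differed between the days for Mgarp, by 2.08 log2 units (adjusted p = 0.0103, edgeR), and for Clrn1, by 1.59 (adjusted p = 0.0275, edgeR). For both, all 7 ONP pools of day 30 were below all 4 of day 7. These p-values are not independent of the choice of the genes for a high ratio in the same libraries. Neither gene passed with limma-voom, and Clrn1 also missed the threshold with the replicate block and without some single pools.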

How the results depend on the processing

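The median regional log2FC of the 10 genes stayed between 3.50 and 3.61 at 30 days and 2.74 and 2.94 at 7 days without single pools. Counts of relatives higher in the ONH and ONP without single pools were 26 to 29 and 24 to 27 at 30 days, and 5 to 15 and 6 to 16 at 7 days. At 7 days DESeq2 gave 19 higher in the ONH, and a single fit of all 4 groups 25 and 18.

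For 30 against 7 days in the ONH (0 genes in edgeR), DESeq2 called 446 genes, the fit of all 4 groups 296, each other filter (at least 1 count, or at least 10 counts in every sample) 2, and fits without single pools 0 to 183. Relatives called there were 1 higher in DESeq2 and 1 in the fit of all 4 groups, and without single pools 0 higher and 0 to 2 lower. In the ONP (2635 genes), the fit of all 4 groups called 1207 and fits without single pools 1440 to 3233, with 3 to 4 of the 10 genes and 2 to 7 relatives higher and 11 to 18 lower. Relatives were 10 higher in DESeq2, 10 lower with library size only, and 3 higher and 9 lower with all 4 groups.

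For the change of the regional ratio (96 genes), DESeq2 called 409, limma-voom 56, the filter of at least 1 count 49, the replicate block 162, leaving out pool 7 60, and single pools 22 to 322. Of the 10 genes, DESeq2 called 3, limma-voom 0, the replicate block 1 and fits without single pools 1 to 2. Relatives called positive were 2 in DESeq2, 0 to 2 without single pools, and 0 with limma-voom, RLE size factors, library size only, at least 1 count or pool 7 left out.

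Signs turned for genes that passed no test. In the ONH, Prss56 ranged from -0.38 to 0.25 without single pools, the latter without ONH pool 3 of day 7. In the ONP, Pdlim3 was 0.0093 in DESeq2, 0.0062 with RLE, 0.0088 with at least 10 counts, 0.0098 with all 4 groups, 0.016 with at least 1 count and 0.094 with library size, and -0.11 to 0.11 without single pools. Bok was 0.039 with library size and -0.16 to 0.082 without single pools, Fancc -0.032 to 0.18, and Pla2g5 -0.0044 in limma-voom and -0.080 to 0.38 without single pools. Prss56 was 0.32 in limma-voom and -1.55 to 0.59 without single pools, the latter without ONP pool 1 of day 7. In the ratio change, Prss56 was -0.42 in limma-voom, -0.25 with the replicate block and -0.85 to 1.31 without single pools, the former without that pool, and Pla2g5 -0.052 with library size and -0.11 to 0.34 without single pools. Cltb's fall in the ONP did not pass with library size only (-0.31, adjusted p = 0.0581) or all 4 groups (-0.39, adjusted p = 0.114, edgeR). Library size in place of TMM moved the median of all genes by 0.11 at 7 days and in the ONP and by -0.15 in the ratio change. TMM factors over all libraries ran from 0.907 to 0.961 in the 7-day ONP and 0.966 to 1.022 in the 30-day ONP. In the ONH they ran from 0.987 to 1.086 at 7 days and 0.989 to 1.060 at 30 days. Why the factors differ was not tested. The replicate block of 30-day pools changed no other call of the 10 genes, and none was run for 30 against 7 days, whose mice differ. Depth limits Prss56 in the ONP, with 1 to 74 reads.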
